A study of Mus musculus with 12 samples.

Results

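Chemokines and their receptors were measured in mouse bone marrow cultures driven by Hoxa9, with and without Meis1. The genes were chosen by symbol alone: Ccl, Ccr, Cxcl, Cxcr, Cx3cl, Cx3cr, Xcl or Xcr followed by a number and at most 1 letter, plus Il8rb, the array's symbol for Cxcr2. Among probe sets that name 1 gene symbol this gave 51 of 22296 genes. They comprised 19 CC ligands, 9 CC receptors, 5 CXC ligands with the ELR motif, 8 other CXC ligands, 6 CXC receptors, 2 ligands and 2 receptors of the CX3C and XC classes. The symbol rule uses no measured value, but this gene family was taken up with earlier results of these data known.

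All 12 arrays came from primary bone marrow progenitor cultures of female C57B/6 mice aged 12 weeks and treated with 5-FU, a drug that kills dividing cells and so enriches the marrow for early progenitors. Every culture was transduced with MSCV retroviral constructs and overexpressed Hoxa9, a homeobox gene that lets myeloid progenitors keep dividing. The growth medium was DMEM with 15% FCS, IL3, SCF and IL6. The 3 conditions were compared, each with 4 arrays, 2 harvested after 3 weeks and 2 after 4 weeks. HOXA9+MIY carried the empty MIY vector, HOXA9+MEIS1 carried full-length Meis1, a DNA-binding partner of Hoxa9, and HOXA9+MDHD carried Meis1 without its homeodomain, labelled MEIS1dHD. The design states 4 independent experiments per condition, but the labels do not say whether the arrays of both weeks come from the same cultures. If they do, the 4 arrays of a condition are not independent, and standard errors and p-values between conditions may be too small. The spread between arrays may also be partly technical. Transgene levels are set by the retroviral vector.

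The Hoxa9 value was between 13.18 and 13.46 on all 12 arrays (log2 of the RMA probe set signal, summarised per gene). Meis1 stood at 6.77 to 6.96 in HOXA9+MIY, 9.62 to 9.83 in HOXA9+MEIS1 and 9.11 to 9.74 in HOXA9+MDHD. Defining genes of the labelled progenitors gave a mixed picture. Kit ranged from 9.79 to 10.61, Cd34 from 9.51 to 11.56 and the myeloid granule gene Mpo from 10.36 to 12.97 over the 12 arrays. Other early progenitor genes ranged over the 12 arrays to unequal degrees, Myb least. Myb was at 11.53 to 11.82, Erg at 8.90 to 10.66, Gata2 at 8.19 to 9.94 and Ly6a at 8.33 to 12.23. Hlf was at 7.96 to 9.23, Angpt1 at 7.28 to 9.44 and Prom1 at 6.44 to 8.87. Slamf1 and Evi1 were low, at 6.26 to 7.41 and 6.79 to 7.81. Flt3 was at 6.67 to 6.90 in HOXA9+MIY, 9.74 to 10.07 in HOXA9+MEIS1 and 6.79 to 7.85 in HOXA9+MDHD. Some genes of mature myeloid cells were also high in HOXA9+MIY. S100a8 of neutrophils was at 12.54 to 13.06 there and Lyz2 of macrophages at 12.78 to 12.94. Others were lower there, with Camp of neutrophils at 7.88 to 8.46 and Cd163 of macrophages at 7.01 to 7.18. In HOXA9+MEIS1 S100a8 was at 8.72 to 9.69 and Lyz2 at 10.27 to 10.52. In HOXA9+MDHD S100a8 was at 9.74 to 12.65 and Lyz2 at 11.99 to 12.84. Correlations between arrays over all genes ran from 0.9468 to 0.9932. HOXA9+MDHD arrays differed among themselves in several of the genes described here, and results that rest on single ones are given with and without them. With 4 arrays per condition, the number of arrays limits the precision.

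Chemokines are small secreted proteins that bind receptors coupled to inhibitory G proteins and steer migrating leukocytes. CC chemokines such as Ccl2 mainly attract monocytes, and ELR-containing CXC chemokines attract neutrophils through Cxcr2. Cxcl12 and its receptor Cxcr4 hold stem and progenitor cells in the marrow. Monocytes and macrophages both make CC chemokines and carry their receptors, among them Ccr1, Ccr2 and Cx3cr1. Several CC ligand genes lie next to each other in the genome. In the RefSeq order of protein-coding genes on mouse chromosome 11, 6 of the genes studied follow each other as Ccl2, Ccl7, Ccl11, Ccl12, Ccl8 and Ccl1, and 5 as Ccl5, Ccl9, Ccl6, Ccl3 and Ccl4.

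The promoters of Ccl6, Ccl9 and Ccr1 are printed because Ccl6 and Ccl9 are neighbours that fell by very different amounts with full-length Meis1, and Ccr1 is a receptor for both proteins and fell as well. Each is the 250 bases before the annotated RefSeq start, 5′ to 3′ on the gene's strand (GRCm38.p6): chr11:83593088-83593337, minus strand, for Ccl6, chr11:83578637-83578886, minus strand, for Ccl9 and chr9:123968693-123968942, minus strand, for Ccr1. Capitals mark matches, on either strand, to the kappa-B consensus, AP-1 (TGANTCA), C/EBP (TTNNGCAA), PU.1 (GAGGAA) or MEIS (TGACAG).
Ccl6: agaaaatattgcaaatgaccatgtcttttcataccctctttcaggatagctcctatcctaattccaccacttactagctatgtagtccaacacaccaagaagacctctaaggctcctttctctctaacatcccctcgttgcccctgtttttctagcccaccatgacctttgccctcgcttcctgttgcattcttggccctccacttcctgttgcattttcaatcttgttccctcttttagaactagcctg
Ccl9: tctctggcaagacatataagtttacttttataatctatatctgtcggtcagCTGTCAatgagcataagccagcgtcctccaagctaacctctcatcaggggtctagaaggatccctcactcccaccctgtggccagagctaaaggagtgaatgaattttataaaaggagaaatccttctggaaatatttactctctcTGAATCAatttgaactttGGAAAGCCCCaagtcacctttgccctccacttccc
Ccr1: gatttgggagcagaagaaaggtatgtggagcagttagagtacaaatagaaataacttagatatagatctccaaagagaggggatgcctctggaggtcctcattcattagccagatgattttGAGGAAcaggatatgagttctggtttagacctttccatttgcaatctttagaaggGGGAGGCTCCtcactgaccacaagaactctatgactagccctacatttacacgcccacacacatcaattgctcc
The Ccl6 window held no match. In the Ccl9 window there was a MEIS match on the minus strand at bases -199 to -194 from the start, an AP-1 match at -53 to -47 and a kappa-B match on the minus strand at -35 to -26. The Ccr1 window held a PU.1 match at -129 to -124 and a kappa-B match at -74 to -65. No matches overlapped each other. Among 32851 RefSeq windows of the same length, 7.25% held a kappa-B match, 6.75% an AP-1 match, 9.56% a C/EBP match, 23.3% a PU.1 match and 15.9% a MEIS match. These are matches of letters and were not measured as binding sites.

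A gene was placed against the median level of all probe sets on the arrays, 6.2592. Of the 51 genes, 33 (64.7%) had a median probe set level above it, against 15186 of 22296 named genes (68.1%). At least 1 probe set lay above it for 47 genes, which were therefore tested. A total of 12 genes (23.5%) also exceeded the 75th percentile, 7.7250, against 9264 of 22296 named genes (41.6%): Ccl3, Ccl5, Ccl6, Ccl7, Ccl9, Cxcl1, Cxcl2, Ccr1, Ccr2, Ccr4, Cxcr4 and Il8rb. By class, the median level was above 6.2592 for 12 of 19 CC ligands, 6 of 9 CC receptors, 2 of 5 ELR CXC ligands, 5 of 8 other CXC ligands, 4 of 6 CXC receptors and all 4 CX3C and XC genes. Between the line and the 75th percentile lay the ligands Ccl2, Ccl4, Ccl11, Ccl17, Ccl25, Ccl27a, Ccl28, Cxcl10, Cxcl12, Cxcl14, Cxcl16, Cxcl17, Cx3cl1 and Xcl1. The receptors there were Ccr7, Ccr9, Ccr10, Cxcr3, Cxcr7, Cx3cr1 and Xcr1. Just above the line were Xcr1 at 6.43 and Ccl28 at 6.37, and just below it were Cxcl9 at 6.13 and Cxcl11 at 6.05. A median can hide bright probe sets. The ELR ligand Cxcl3 was below the line at 6.02, but 3 of its 6 probe sets were above it, up to 10.91.

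The 4 genes with no probe set above the line were Cxcr6, Cxcr5, Ccl26 and Ccr8. Array values were 5.10 to 6.18 for Cxcr6, the receptor for Cxcl16, and 4.92 to 5.96 for the B cell follicle homing receptor Cxcr5. The eosinophil attractant Ccl26 was at 4.89 to 5.57, and Ccr8, a chemokine receptor gene of T cells, at 4.67 to 5.51. Probes differ in how strongly they bind, so these levels do not rank the genes by transcript number. A level near 7 is also no sign of expression by itself: in these myeloid cultures Cd3e, a T cell gene, read 7.44 to 7.65, and Col1a1, a collagen gene of connective tissue, 7.83 to 8.04.

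**Figure D1:**
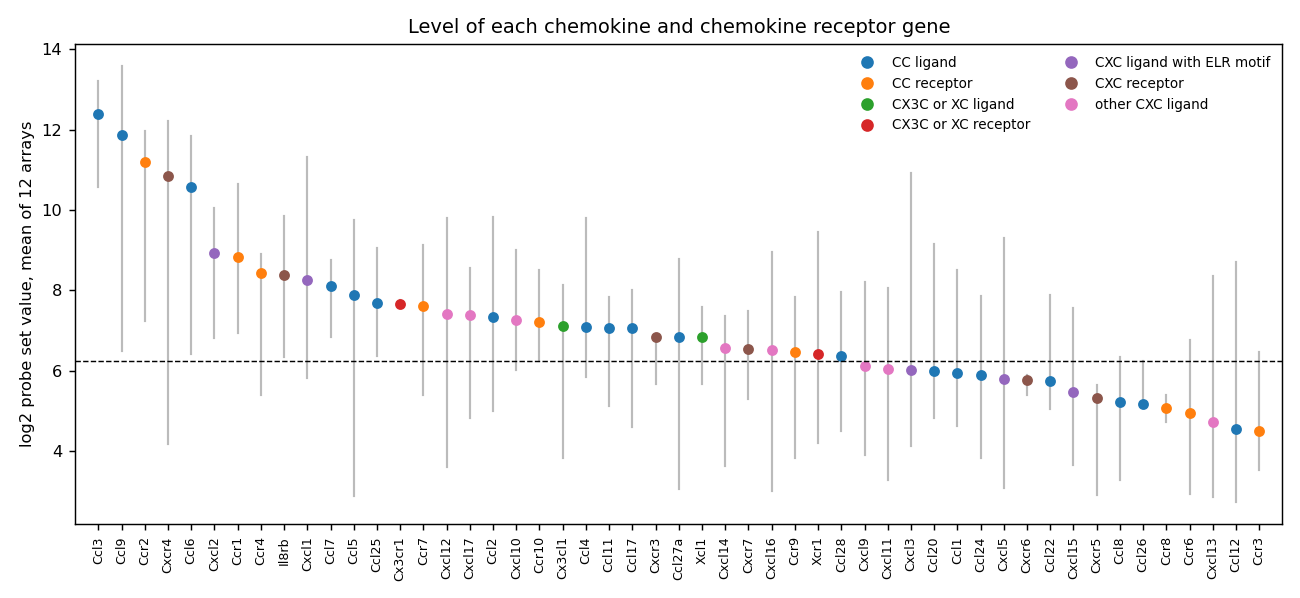
Level of each of the 51 chemokine and chemokine receptor genes: the point is the median over the gene's probe sets of the log2 value averaged over 12 arrays, the grey bar runs from the lowest to the highest probe set, and the dashed line is the median of all probe sets, 6.2592. A total of 33 points lie above the line, and probe sets of 1 gene spread over several log2 units.

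Of the 47 genes tested, 7 fell and none rose in HOXA9+MEIS1 against HOXA9+MIY (limma, Benjamini-Hochberg adjusted p under 0.05 over 20711 genes). Over all genes 10.8% were called, 5.55% lower and 5.29% higher. Those that fell were the ligands Ccl2, Ccl6, Ccl7, Ccl9 and Cxcl16 and the receptors Ccr1 and Cx3cr1. By class, 4 of 18 CC ligands tested, 1 of 8 CC receptors, 1 of 8 CXC ligands without the ELR motif and 1 of 2 CX3C and XC receptors fell. The median difference was -0.08 over the 47 genes and -0.01 over all genes, and 34 of the 47 differences were below 0.

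Ccl6, a CC chemokine of macrophages and neutrophils that acts through Ccr1, showed the largest difference among the 47. Its log2 values were 11.59, 11.66, 11.77 and 11.85 in HOXA9+MIY and 9.03, 9.19, 9.42 and 9.94 in HOXA9+MEIS1. The groups did not overlap. In all, 8 of 47 genes were lower without overlap (the 7 that fell and Cxcl2) and 0 higher, beside 5.96% lower and 5.04% higher over all genes. The difference was -2.32 ± 0.22 (log2, SE, 4 arrays a group), which is 5.00-fold lower, with a limma adjusted p of 3.2e-05. All 8 Ccl6 probe sets were lower, by amounts between -0.97 and -2.65. Ccl6 also fell when only week 3 arrays (-2.51) or only week 4 arrays (-2.13) were fitted.

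Ccl9 codes for another Ccr1 ligand and lies beside Ccl6. Its values were 12.08, 12.13, 11.88 and 11.99 in HOXA9+MIY and 11.75, 11.56, 11.75 and 11.55 in HOXA9+MEIS1. All 4 arrays with full-length Meis1 were lower than every empty-vector array, but by little: the difference was -0.37 ± 0.0597, 1.29-fold (limma adjusted p = 0.0015). On week 4 arrays alone it was -0.29 and did not pass (adjusted p = 0.114). Of the 9 Ccl9 probe sets, 8 were lower, and single ones differed by -1.07 to 0.14. The other genes of this row on chromosome 11 did not pass: Ccl5 differed by -0.04, Ccl3 by 0.34 and Ccl4 by 0.10 (limma adjusted p = 0.951, 0.299 and 0.916).

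Ccl2 codes for the main monocyte attractant acting through Ccr2. It read 8.84, 8.97, 7.86 and 8.05 in HOXA9+MIY, against 6.56, 6.40, 6.47 and 6.43 in HOXA9+MEIS1. The 4 HOXA9+MEIS1 arrays lay close together, and the empty-vector arrays were higher at week 3 than at week 4. The difference was -1.96 ± 0.288, 3.90-fold lower (limma adjusted p = 7.19e-04). The size depended on the probe sets: single probe sets differed by -0.33 to -3.54, and with only probe sets above the 75th percentile the value was -0.84. On week 4 arrays alone Ccl2 did not pass, at -1.50 (adjusted p = 0.0868).

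Ccl7, the neighbour of Ccl2 and a ligand of Ccr1 and Ccr2, gave 8.64, 8.68, 8.37 and 8.31 in HOXA9+MIY and 7.44, 7.65, 7.84 and 7.56 in HOXA9+MEIS1. The difference was -0.88 ± 0.166, 1.84-fold lower (limma adjusted p = 0.00433). Its 6 probe sets all differed in the same direction, from -0.15 to -2.77. On week 4 arrays alone it was -0.64 and did not pass (adjusted p = 0.167). Of the other 4 genes in that row, Ccl11, Ccl12, Ccl8 and Ccl1, none passed, with differences from -0.16 to 0.03.

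Cxcl16 codes for a membrane-bound chemokine of macrophages and dendritic cells. Its values were 6.91, 6.96, 7.15 and 7.13 in HOXA9+MIY and 6.55, 6.38, 6.33 and 6.33 in HOXA9+MEIS1. The difference was -0.64 ± 0.114, 1.56-fold lower (limma adjusted p = 0.00289). Only 6 of its 7 probe sets were lower, and on week 3 arrays alone the value was -0.47 (adjusted p = 0.248). All these Cxcl16 values were below those of the T cell gene Cd3e, 7.44 to 7.65, so the level is no sign of expression by itself.

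Among receptors, Ccr1, which binds Ccl3, Ccl5, Ccl6, Ccl7 and Ccl9, read 9.36, 9.48, 9.33 and 9.40 in HOXA9+MIY and 8.04, 7.59, 8.11 and 8.54 in HOXA9+MEIS1. The empty-vector arrays lay close together and the full-length Meis1 arrays were all lower. The difference was -1.33 ± 0.16, 2.51-fold lower (limma adjusted p = 1.72e-04). It was -1.61 on week 3 arrays and -1.04 on week 4 arrays, and passed on both. Of its 7 probe sets, 6 were lower and 1 differed by 0.02.

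Cx3cr1, the fractalkine receptor of patrolling monocytes, gave 7.71, 7.68, 7.79 and 7.87 in HOXA9+MIY and 7.24, 7.38, 7.54 and 7.54 in HOXA9+MEIS1. The difference of -0.34 ± 0.0913 was 1.26-fold and close to the threshold (limma adjusted p = 0.0323). Leaving out any 1 of the 8 arrays of these conditions ended the call, as did fitting either week alone (adjusted p = 0.258 and 0.139). With only probe sets above the 75th percentile the value was -0.15 (adjusted p = 0.669). All these Cx3cr1 values were below 8.04, the highest value of the collagen gene Col1a1, so the level is no sign of expression by itself. Ccr2, the receptor for Ccl2 and Ccl7, did not pass, with values of 10.89 to 11.37 in HOXA9+MIY and 10.67 to 11.06 in HOXA9+MEIS1 and a difference of -0.26 ± 0.159 (limma adjusted p = 0.403).

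**Figure D2:**
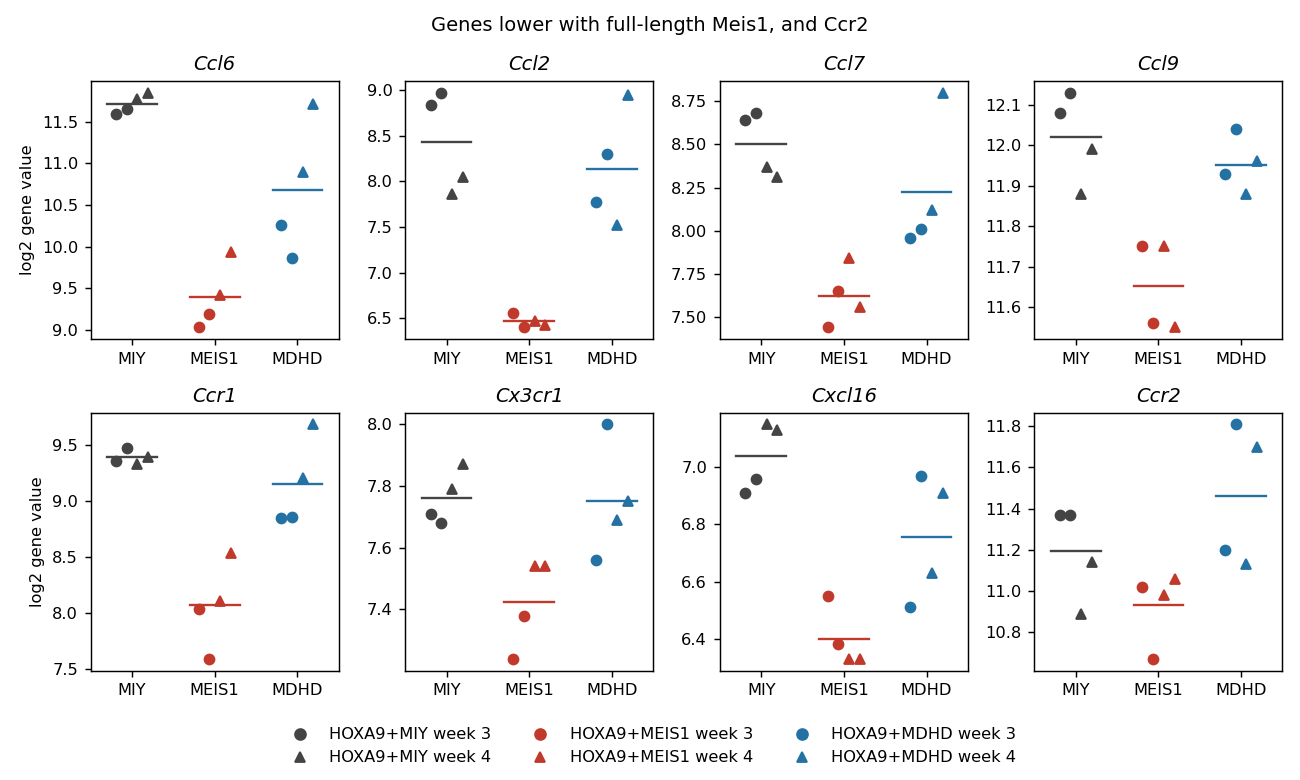
Log2 gene values of the 7 genes lower with full-length Meis1, and of Ccr2, on each of the 12 arrays (circles week 3, triangles week 4, line the mean of 4 arrays, a separate vertical scale in each panel). In the 7 genes all 4 HOXA9+MEIS1 arrays lie below the 4 HOXA9+MIY arrays; in Ccr2 they overlap.

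The neutrophil attractants that signal through Cxcr2 did not pass in this comparison. Cxcl2 values were 8.97 to 9.51 in HOXA9+MIY and 8.27 to 8.92 in HOXA9+MEIS1, without overlap, and the difference of -0.57 ± 0.176 missed the threshold (limma adjusted p = 0.0571). Several other settings brought it past the threshold, among them leaving out HOXA9+MIY week 4 replicate 1 (-0.68, adjusted p = 0.0422) or HOXA9+MDHD week 4 replicate 2 (-0.57, adjusted p = 0.0286). Cxcl3 differed by -0.39 and Cxcl1 by 0.20 (limma adjusted p = 0.115 and 0.22). The receptor Il8rb differed by -0.54 ± 0.301 (adjusted p = 0.336). Cxcr4 differed by -0.13 ± 0.0583 (adjusted p = 0.212).

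Markers of mature myeloid cells moved with the same comparison. Of 19 monocyte and macrophage markers tested, 13 were called lower and 1 higher, and their mean log2 value was 9.40 to 9.52 in HOXA9+MIY and 8.21 to 8.39 in HOXA9+MEIS1. Csf1r, the macrophage growth factor receptor, was at 10.04 to 10.40 and at 6.96 to 7.59, while Emr1, a macrophage surface gene, was at 10.88 to 11.25 and at 11.78 to 12.39. All 17 late stage neutrophil markers were lower, with list means of 9.72 to 10.61 and 7.71 to 8.02. Of 13 early progenitor markers, which include the transgene Meis1, 7 were higher and 2 lower. Lists for other cells gave, higher and lower, 0 and 3 of 7 for primary granules, 1 and 2 of 13 for megakaryocytes, 1 and 1 of 12 for dendritic cells, 1 and 0 of 11 for mast cells and basophils, 0 and 1 of 5 for eosinophils, 0 and 1 of 8 for B cells, 0 and 0 of 11 for T and NK cells (limma, 0 of 11 also at an unadjusted p under 0.05) and 2 and 0 of 14 for stroma and endothelium. The part of these cells in the lower chemokine values was not tested, and in bulk cultures fewer cells of a type and less RNA per cell cannot be told apart.

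Genes that work with chemokines but fall outside the symbol rule gave 3 lower and 0 higher of 18 tested. They were Cd74, a receptor chain for Mif (-1.20 ± 0.304, limma adjusted p = 0.0232), the platelet chemokine Pf4 (-0.69 ± 0.129, adjusted p = 0.00405) and the chemerin receptor Cmklr1 (-0.63 ± 0.136, adjusted p = 0.00995). Of 45 genes of signalling below the receptors, 10 were lower and 2 higher. The largest were Fgr, a Src family kinase (-1.13), Pik3r5, an adaptor of phosphoinositide 3-kinase gamma (-1.10), the receptor kinase Grk5 (-0.89) and the G protein regulator Rgs2 (-0.78). Of 29 NF-kB genes and inflammatory targets, 5 were lower and 3 higher, with Il1a at -3.14, Il1b at -2.34, Tlr2 at -1.28 and Ptgs2 at 0.98. The lists' median differences were -0.03, -0.09 and -0.08, beside -0.01 over all genes.

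With Meis1 lacking its homeodomain fewer genes passed the test, over all genes as well as among the 47. In HOXA9+MDHD against HOXA9+MIY 1 of 47 genes passed, Ccl6, which was lower. Over all genes 1.91% were called, 0.999% lower and 0.913% higher, against 10.8% called with full-length Meis1. The count among the 47 was thus near the share over all genes. The median difference was -0.02 over the 47 genes and -0.01 over all genes. None of the 47 genes was higher or lower without overlap, beside 1.62% higher and 2.56% lower over all genes. This comparison and the one before share the HOXA9+MIY arrays.

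Ccl6 read 10.26 and 9.86 at week 3 and 10.90 and 11.72 at week 4 in HOXA9+MDHD. The week 4 replicate 2 array lay among the empty-vector arrays and the other 3 below them. The difference was -1.03 ± 0.22, 2.05-fold lower (limma adjusted p = 0.0357). The call was fragile: it ended without any 1 of 9 arrays, namely the 4 HOXA9+MIY arrays, both week 3 HOXA9+MEIS1 arrays, and the HOXA9+MDHD arrays other than week 4 replicate 2, with values from -0.85 to -1.14. On week 3 arrays it was -1.56 (adjusted p = 0.00865) and on week 4 arrays -0.50 (adjusted p = 0.716). Of the monocyte and macrophage markers 7 of 19 were lower and 1 higher, and their mean on the 4 HOXA9+MDHD arrays was 8.83 and 8.91 at week 3 and 8.92 and 9.42 at week 4. Of the late stage neutrophil markers 9 of 17 were lower. The part of either list in the Ccl6 value was not tested.

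Cxcl12, the marrow chemokine that retains progenitors, was high on 3 of the 4 HOXA9+MDHD arrays. Its values were 8.79 and 8.60 at week 3 and 9.11 and 7.01 at week 4. All other arrays lay between 7.00 and 7.59, and the week 4 replicate 2 array of HOXA9+MDHD was among them. Over all 4 arrays the difference from HOXA9+MIY was 1.09 ± 0.316 and did not pass (limma adjusted p = 0.117). Without HOXA9+MDHD week 4 replicate 2 it was 1.53 ± 0.141, 2.88-fold, and passed (adjusted p = 1.47e-04). Its 7 probe sets used were all higher, by 0.05 to 2.05. Stroma and endothelium markers, of cells that make Cxcl12 in marrow, had list means of 7.69 and 7.63 at week 3 and 7.73 and 7.61 at week 4 in HOXA9+MDHD, beside 7.60 to 7.64 in HOXA9+MIY; Col1a1 was at 7.83 to 7.94 and at 7.91 to 8.04. Of the 14 markers 2 were called higher and none lower: Pdgfrb, a receptor gene of mural and stromal cells, by 0.93 ± 0.168 (limma adjusted p = 0.0167, 7.42 to 8.46 against 7.04 to 7.29), and Pecam1, of endothelium and some blood cells, by 0.21 ± 0.0463 (adjusted p = 0.0387). In HOXA9+MEIS1, where Cxcl12 was not high, Pdgfrb was at 8.80 to 9.02 and Pecam1 at 11.79 to 11.88. The part of such cells in the Cxcl12 values was not tested.

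Ccl7 was called lower than in HOXA9+MIY on week 3 arrays alone (-0.68, limma adjusted p = 0.0284) and without HOXA9+MDHD week 4 replicate 2 (-0.48, adjusted p = 0.0358), but not over all arrays (-0.28, adjusted p = 0.531). Its HOXA9+MDHD values were 7.96, 8.01, 8.12 and 8.80, the last from that array. Ccl2 stood at 7.77, 8.30, 7.52 and 8.95, overlapping the empty vector, with a difference of -0.30 ± 0.288 (adjusted p = 0.74). Without both HOXA9+MDHD arrays numbered 2, a setting chosen after seeing the data, the Ccl2 difference was -0.79 and passed (limma adjusted p = 0.0413). Ccr1 stood at 8.85, 8.86, 9.21 and 9.69 and differed by -0.24 ± 0.16 (adjusted p = 0.586). Of the wider chemokine system 1 of 18 genes was lower, Cmtm3 (-0.63 ± 0.0939, adjusted p = 0.00719), and none was higher.

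Setting the 2 forms of Meis1 against each other, 4 of 47 genes were lower and none higher in HOXA9+MEIS1 than in HOXA9+MDHD, beside 4.36% called over all genes, 2.12% lower and 2.24% higher. The 4 were Ccl2, Ccl6, Ccl9 and Ccr1, and the median difference was -0.08 over the 47 genes and 0.01 over all genes. Ccl2 differed by -1.67 ± 0.288, 3.17-fold (limma adjusted p = 0.00539), though by -0.70 with only probe sets above the 75th percentile. The low HOXA9+MEIS1 levels of several Ccl2 probe sets make this fold uncertain as well. Ccl6 differed by -1.29 ± 0.22, 2.44-fold (adjusted p = 0.0051). Ccr1 differed by -1.08 ± 0.16, 2.12-fold (adjusted p = 0.00195). Ccl9 differed by -0.30 ± 0.0597, 1.23-fold (adjusted p = 0.0131); its HOXA9+MDHD values were 11.93, 12.04, 11.88 and 11.96. Of the 4 genes only Ccl6 overlapped between the groups. With Ccl7, Cx3cr1 and Ccr2, which did not pass, 6 of 47 genes were lower without overlap and 0 higher, beside 2.53% lower and 2.67% higher over all genes.

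Without a term for week Ccl6 and Ccl9 did not pass in that comparison (adjusted p = 0.0989 and 0.0801). On week 4 arrays alone Ccl2 did not pass (-1.78, adjusted p = 0.109), and Ccl9 passed in neither week alone. Ccr2 was lower in HOXA9+MEIS1 by -0.53 ± 0.159, without overlap, and missed the threshold (adjusted p = 0.0982). Its HOXA9+MDHD values were 11.20 and 11.13 on the arrays numbered 1 and 11.81 and 11.70 on those numbered 2. Without both arrays numbered 1 the difference was -0.83 and passed (adjusted p = 0.00634). Cxcl12 missed the threshold at -1.19 ± 0.316 (adjusted p = 0.0588) and passed without HOXA9+MDHD week 4 replicate 2, at -1.62 (adjusted p = 8e-05).

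In the same comparison 10 of 19 monocyte and macrophage markers were lower and 2 higher, and 8 of 17 late stage neutrophil markers were lower. Their part in the chemokine values was not tested. Of the wider chemokine system 2 of 18 genes were lower, Cd74 (-1.25) and Pf4 (-0.57), and 1 was higher, Cmtm3, a member of the chemokine-like factor family (0.75 ± 0.0939, limma adjusted p = 6.4e-04). Signalling genes gave 3 lower and 0 higher of 45, and NF-kB genes 3 lower and 0 higher of 29, the latter being Il1a (-2.73), Il1b (-1.62) and Tlr2 (-0.83).

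**Figure D3:**
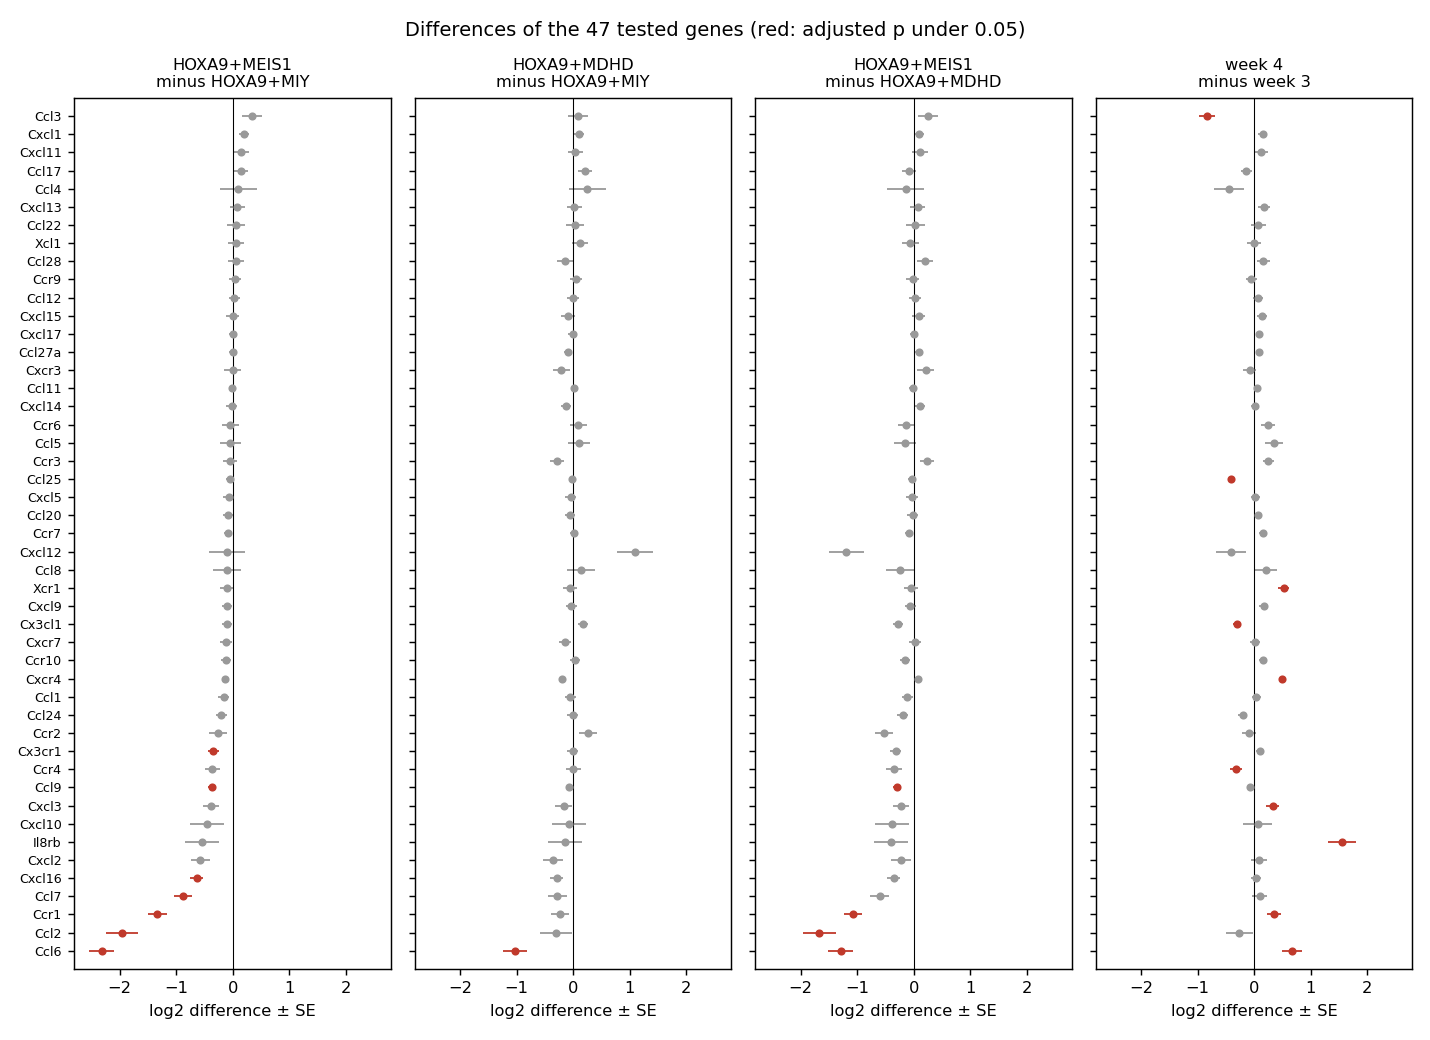
Log2 difference ± SE of the 47 tested genes in the 4 comparisons (limma over 12 arrays, genes in the same order in each panel, red where the adjusted p is under 0.05). Called genes number 7, 1, 4 and 10, and all calls between conditions lie to the left of 0.

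From week 3 to week 4, 6 of the 47 genes rose and 4 fell, beside 39.8% called over all genes, 11.7% higher and 28.1% lower. Those that rose were the receptors Il8rb, Cxcr4, Xcr1 and Ccr1 and the ligands Ccl6 and Cxcl3, and those that fell were the ligands Ccl3, Ccl25 and Cx3cl1 and the receptor Ccr4. The split depended on scaling: 10 rose and 3 fell after quantile normalization and 11 rose and 3 fell after median centring. Over all genes the calls higher were 2426 of 8241 in the values as deposited, 3810 of 8240 after quantile normalization and 3657 of 8728 after median centring, and the median difference of all genes was -0.022, -0.002 and 0.027.

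Il8rb, the receptor through which neutrophils follow ELR chemokines, was at 7.28 to 7.78 on the 6 week 3 arrays, with a median of 7.60. At week 4 it was at 9.65 and 9.39 in HOXA9+MIY, 8.10 and 8.82 in HOXA9+MEIS1 and 8.79 and 10.15 in HOXA9+MDHD. Every week 4 array was above every week 3 array. That held for 3 of 47 genes, and the reverse for 2, beside 4.13% and 17.9% of all genes. The rise was 1.56 ± 0.246, 2.96-fold (limma adjusted p = 2.26e-04). In the same comparison 8 of 17 late stage neutrophil markers rose and none fell, and the list means went from 9.72 and 9.95 at week 3 to 10.61 and 10.32 at week 4 in HOXA9+MIY and from 8.74 and 8.14 to 9.23 and 9.82 in HOXA9+MDHD. In HOXA9+MEIS1 the list means were 7.97 and 7.96 and then 7.71 and 8.02, while Il8rb was at 7.68 and 7.60 and then 8.10 and 8.82. The part of neutrophils in the Il8rb rise was not tested.

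Cxcr4, the receptor for Cxcl12, ranged from 11.07 to 11.42 at week 3 and from 11.57 to 11.77 at week 4. The groups did not overlap and the rise was 0.49 ± 0.0476, 1.40-fold (limma adjusted p = 5.83e-06). Within week 3 the 2 HOXA9+MIY arrays, at 11.42 and 11.35, were above the other 4, at 11.07 to 11.12. Xcr1, the receptor for Xcl1 on cross-presenting dendritic cells, rose from 7.62 to 8.20 at week 3 to 8.21 to 8.57 at week 4, by 0.52 ± 0.102 (adjusted p = 0.00122). It went from 8.14 and 8.20 to 8.21 and 8.37 in HOXA9+MIY, a small change. In HOXA9+MEIS1 it went from 7.91 and 7.62 to 8.43 and 8.57, and in HOXA9+MDHD from 7.94 and 7.71 to 8.52 and 8.54. The change between weeks in the difference from HOXA9+MIY did not pass for either (0.62 ± 0.165, limma adjusted p = 0.519, and 0.59 ± 0.165, adjusted p = 0.909). The Xcr1 rise was 0.27 and did not pass when all 4 of its probe sets were used (adjusted p = 0.0686). Its 2 probe sets above the line carried the call.

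Ccl3, an inflammatory chemokine that binds Ccr1, fell over the 3 conditions together. At week 3 its values were 12.80 and 12.78 in HOXA9+MIY, 12.79 and 12.60 in HOXA9+MEIS1 and 12.61 and 13.18 in HOXA9+MDHD. At week 4 they were 11.52 and 11.81, 12.44 and 12.44, and 11.81 and 11.68. The 2 HOXA9+MEIS1 arrays of week 4 were thus closest to week 3. Over all conditions the fall was -0.84 ± 0.144, 1.80-fold (limma adjusted p = 4.37e-04). Fitted on week 4 arrays alone, the Ccl3 difference of HOXA9+MEIS1 was 0.77 from HOXA9+MIY (adjusted p = 0.00679) and 0.69 from HOXA9+MDHD (adjusted p = 0.0218). The test of whether the difference itself changed between weeks did not pass for either (0.86 ± 0.218, adjusted p = 0.486, and 0.89 ± 0.218, adjusted p = 0.6).

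Ccl25, the thymus and gut chemokine, was at 7.79 to 7.99 at week 3 and 7.41 to 7.58 at week 4, a fall of -0.41 ± 0.0507 without overlap (limma adjusted p = 3.2e-05). Cx3cl1, or fractalkine, the ligand of Cx3cr1, was at 7.24 to 7.70 and at 6.88 to 7.39, a difference of -0.31 ± 0.0713 (adjusted p = 0.00335). The Cx3cl1 value was -0.20 and did not pass with only probe sets above the 75th percentile (adjusted p = 0.0566). No array of Ccl25 or Cx3cl1 exceeded 8.04, the highest value of the collagen gene Col1a1. Their level is thus no sign of expression by itself.

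Ccl6 was higher at week 4 by 0.67 ± 0.18, 1.59-fold (limma adjusted p = 0.00982). Its values went from 11.59 and 11.66 to 11.77 and 11.85 in HOXA9+MIY and from 10.26 and 9.86 to 10.90 and 11.72 in HOXA9+MDHD. The change in that difference between weeks did not pass (1.06 ± 0.344, adjusted p = 0.978). Ccr1 was higher by 0.35 ± 0.13 (adjusted p = 0.0486), a call that ended without any 1 of the HOXA9+MEIS1 or HOXA9+MDHD arrays, at 0.26 to 0.39. Cxcl3 was at 9.35 to 9.91 and at 9.53 to 10.37, higher by 0.33 ± 0.117 (adjusted p = 0.0393). The Cxcl3 call ended without any 1 of 6 arrays, all numbered 2 except for HOXA9+MDHD week 3 replicate 1, at 0.23 to 0.32.

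Ccr4, the receptor for Ccl17 and Ccl22 on T cells, was at 8.61 to 9.13 and at 8.12 to 8.92, lower by -0.32 ± 0.11 (limma adjusted p = 0.0349). That call ended without any 1 of 8 arrays: all 4 HOXA9+MEIS1 arrays, HOXA9+MIY week 3 replicate 1 and week 4 replicate 2, and HOXA9+MDHD week 3 replicate 2 and week 4 replicate 1. It also ended after median centring (-0.27, adjusted p = 0.0555) and after quantile normalization (-0.19, adjusted p = 0.177). Within the wider system 4 of 18 genes were higher, among them Ppbp, the neutrophil-activating chemokine of platelets (1.49 ± 0.28), the atypical receptor gene Ccrl2 (1.40 ± 0.119) and Pf4 (0.75 ± 0.106), and 3 were lower.

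**Figure D4:**
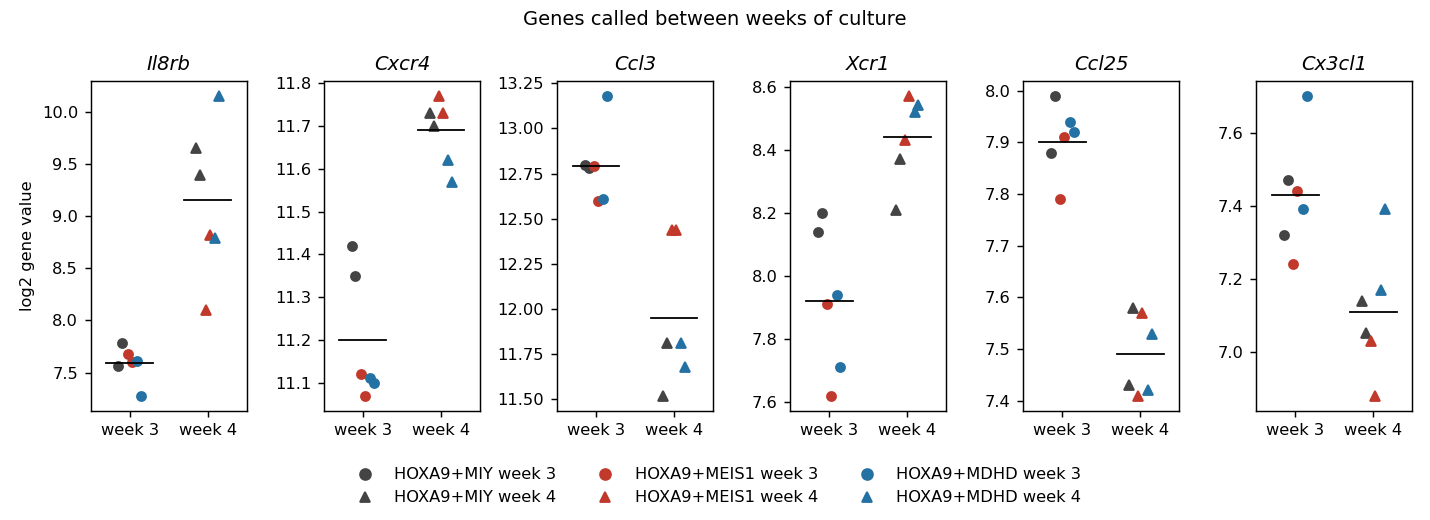
Log2 gene values by week for 6 genes called between weeks on the 12 arrays (colour gives the condition, line the mean of 6 arrays, a separate vertical scale in each panel). Il8rb, Cxcr4 and Xcr1 are higher on every week 4 array, Ccl3 and Ccl25 lower, and Cx3cl1 overlaps.

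No gene passed the test of a difference between conditions that itself differs between weeks (limma, 0 of 47 and 0 of 20711 in each of 3 comparisons). At an unadjusted p under 0.05 there were 6 of 47 for HOXA9+MEIS1 against HOXA9+MIY, 8 of 47 for HOXA9+MDHD against HOXA9+MIY and 4 of 47 for HOXA9+MEIS1 against HOXA9+MDHD. Over all genes the shares were 6.49%, 4.81% and 7.49%.

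Among the genes called in no comparison, the 10 with the highest median probe set level are given by their range. Such a level is no sign of expression by itself. Cxcl1 ranged from 9.40 to 10.02, the lymph node homing receptor Ccr7 from 7.91 to 8.38, the mucosal chemokine Cxcl17 from 8.01 to 8.33 and Ccr10, the receptor for Ccl27a and Ccl28, from 7.05 to 7.57 over the 12 arrays. The T cell attractants Ccl4, Ccl5 and Cxcl10 were all highest on 1 array, HOXA9+MDHD week 3 replicate 2, at 8.73, 8.92 and 8.96. Elsewhere Ccl4 ranged from 6.71 to 7.45, Cxcl10 from 7.28 to 8.45 and Ccl5 from 7.87 to 8.80, so that Ccl5 did not stand apart there. On week 4 arrays alone Cxcl10 differed between HOXA9+MEIS1 and HOXA9+MIY by -0.91 (limma adjusted p = 0.0401), against -0.45 over both weeks (adjusted p = 0.455).

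The remaining 22 tested genes passed in no comparison. They were the CC ligands Ccl1, Ccl8, Ccl11, Ccl12, Ccl17, Ccl20, Ccl22, Ccl24, Ccl27a and Ccl28, the receptors Ccr3, Ccr6, Ccr9, Cxcr3 and Cxcr7, the CXC ligands Cxcl5, Cxcl9, Cxcl11, Cxcl13, Cxcl14 and Cxcl15, and Xcl1. Their log2 differences ran from -0.20 to 0.15 for HOXA9+MEIS1 against HOXA9+MIY, from -0.29 to 0.21 for HOXA9+MDHD against HOXA9+MIY, from -0.24 to 0.24 for HOXA9+MEIS1 against HOXA9+MDHD and from -0.20 to 0.25 for week 4 against week 3. Their lowest limma adjusted p in any comparison was 0.0653, for the weeks.

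**Figure D5:**
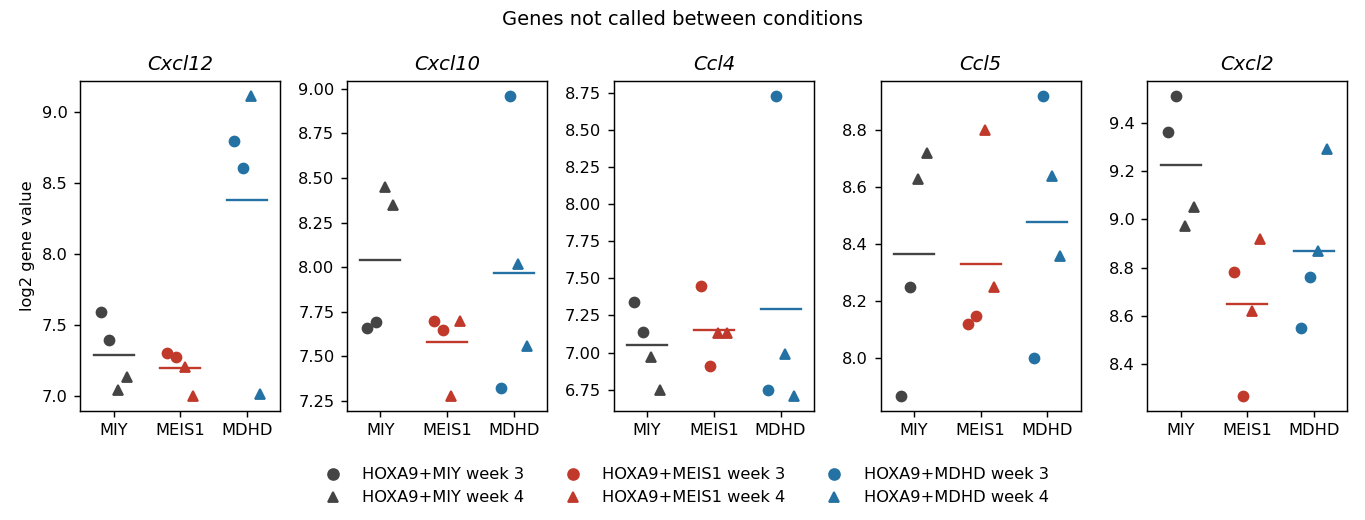
Log2 gene values on the 12 arrays of 5 genes not called between conditions (circles week 3, triangles week 4, line the mean of 4 arrays, a separate vertical scale in each panel). Cxcl12 is high on 3 HOXA9+MDHD arrays, and Cxcl10, Ccl4 and Ccl5 are highest on HOXA9+MDHD week 3 replicate 2.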

How the data were processed

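RNA of 12 cultures was measured on mouse exon arrays. The authors deposited log2 values per probe set made with Affymetrix Expression Console by RMA, per the submitters' processing notes; versions and annotation build are not given in the sources used here. Of 1256831 probe sets, 318760 name 1 gene symbol, 6684 several and 931387 none. A gene's value was the median polish over its named probe sets whose mean over 12 arrays exceeded 6.2592 (the median over all probe sets). This kept 20711 of 22296 genes with a median of 8 probe sets. Array medians ran from 6.258 to 6.301. Differences were fitted with limma 3.58.1 in R 4.3.3 (condition plus week, eBayes with trend, Benjamini-Hochberg over all genes, threshold 0.05), after the code was tested on simulated data. Promoters came from RefSeq (GRCm38.p6).

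The gene family and the gene lists were chosen with earlier results of these data known; the family's members follow from their symbols. Genes called between conditions are described on each array of the conditions compared. Genes called only between weeks are described by array or by their range in each week. The 10 uncalled ones with the highest median probe set level are described by their range. Up to 4 called genes are given from each other list. Alternatives changed the probe set filter, the summary, the scaling, the eBayes trend, the week term, the replicate block, the weeks and the arrays used. Between conditions, same-numbered arrays of a week had residual correlations from -0.315 to -0.0148, and differently numbered ones from -0.271 to 0.0472. These ranges overlapped, so numbers were not taken as pairs. Residual correlations between weeks were not examined.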

Additional observations from a re-analysis of the deposited data

Results flagged for a closer look

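Among 75 groups of 4 arrays, from 25 of the genes, 2 held an array whose gap to the others, divided by the group's range, exceeded Dixon's critical value for 4 samples; chance alone gives about 1 in 20 groups. Ccl4 in HOXA9+MDHD week 3 replicate 2 was 8.73, with the other 3 arrays at 6.71 to 6.99. Cxcl10 in HOXA9+MEIS1 week 4 replicate 1 was 7.28, with the others at 7.65 to 7.70.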

How the results depend on the processing

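No result reversed. Ccl6 and Ccr1 in HOXA9+MEIS1 against HOXA9+MIY passed under all 25 alternatives. That comparison's count of 7 stayed between 5 and 9, and between 6 and 9 when 1 array was left out. For HOXA9+MDHD against HOXA9+MIY the count of 1 became 0 with eBayes without trend, with no week term, with only the groups compared, on week 4 arrays and without both HOXA9+MDHD arrays numbered 1. It became 3 on week 3 arrays and 4 without both numbered 2, and 0 to 3 leaving out 1 array. For HOXA9+MEIS1 against HOXA9+MDHD the count of 4 became 7 with the mean of the probe sets, 2 with no week term and 9 without both arrays numbered 1, and 4 to 5 leaving out 1 array. The week count of 10 was 8 with no probe set filter, 15 with the stricter one and 7 to 13 leaving out 1 array. With the 75th percentile as the level 12 genes, not 33, were above it. With the replicate block the counts were 7, 1, 5 and 9. The cause of these changes was not tested. Leaving out both HOXA9+MDHD arrays of 1 number was chosen after seeing the data. The files give no signal over background, so dim genes have no detection call.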
